A study of Mus musculus with 8 samples.

Results

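Astrocytes are the main makers of lipoprotein-like particles in the brain, and 10 mouse genes of that lipid traffic were followed across 2 culture methods and 2 days. The genes were Apoe, Clu, Apod, Apoc1, Abca1, Abcg1, Lrp1, Fabp5, Fabp7 and Cyp46a1. They were taken by symbol from the 23401 gene rows of the series-wide table, and 10 of 10 were found, with 1 row each. No other gene row overlapped their positions. All 10 passed the filter on low values, at least 2 of 8 libraries at 1 TPM or more (TPM is an abundance scaled to transcript length and to the library's total), as 14904 genes did.

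The samples were labelled mouse astrocytes. Some were cultured by a conventional method (CV, also labelled hard) and some in a culture named MGS (also labelled soft), letters that the labels do not spell out. Day 5 and day 32 were taken from both, so that 4 groups of 2 total RNA libraries were compared, called by culture and day. The labels name no genotype, strain, age or added agent for any group. The labels do not say that replicates came from separate cultures, so the p-values speak only to the spread seen between libraries, and this spread may be technical.

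In the brain, cholesterol does not cross the blood-brain barrier and is moved between cells on particles built around apolipoprotein E. The pumps ABCA1 and ABCG1 load cholesterol and phospholipid onto these particles, receptors such as LRP1 take the particles up, and oxysterols acting on the LXR nuclear receptors switch on the genes of pumps and carriers. Inside the cell, small binding proteins of the FABP family carry fatty acids, and the enzyme CYP46A1 turns cholesterol into a hydroxylated form that can leave the brain.

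Promoter sequences are shown for a pump, a carrier and a binding protein with 3 different patterns over the 4 groups, picked after the values were seen. They are the 250 bases before the transcription start, 5′ to 3′ on the strand of the gene, from RefSeq for GRCm38.p6. A window was found for 6 of the 10 genes, and Clu, Apoc1, Abcg1 and Fabp5 had none. Capitals mark matches to 4 motifs searched on both strands. The motifs were the nuclear receptor core site AGGTCA, its direct repeat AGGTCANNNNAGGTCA, a variant of the LXR repeat, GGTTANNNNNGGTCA, and the TATA box TATAAA. The direct repeat contains the core site, and the variant was picked with the Abca1 window in view.
Abca1, chr4:53159896-53160145, minus strand: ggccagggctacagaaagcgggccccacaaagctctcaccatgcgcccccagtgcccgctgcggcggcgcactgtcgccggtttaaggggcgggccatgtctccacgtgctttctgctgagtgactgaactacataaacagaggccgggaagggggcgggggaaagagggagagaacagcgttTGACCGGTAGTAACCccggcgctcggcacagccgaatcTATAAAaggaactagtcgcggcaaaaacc
Apoe, chr7:19699189-19699438, minus strand: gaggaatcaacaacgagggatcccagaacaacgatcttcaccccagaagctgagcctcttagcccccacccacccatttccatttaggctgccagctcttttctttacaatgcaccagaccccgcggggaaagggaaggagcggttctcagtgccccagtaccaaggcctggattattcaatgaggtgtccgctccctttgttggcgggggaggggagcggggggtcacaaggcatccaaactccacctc
Fabp7, chr10:57784673-57784922, plus strand: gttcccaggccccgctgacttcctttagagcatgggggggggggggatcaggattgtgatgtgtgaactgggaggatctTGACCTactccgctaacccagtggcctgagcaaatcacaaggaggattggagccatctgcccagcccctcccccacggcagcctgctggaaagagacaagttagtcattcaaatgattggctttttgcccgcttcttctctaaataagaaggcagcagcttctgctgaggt
The Abca1 window held the LXR variant, read on the opposite strand, at bases -67 to -53 from the start, and a TATA box at -29 to -24. The variant was in 0.0457% and the TATA box in 12.4% of the 32851 RefSeq windows of this length. The Fabp7 window held 1 core site on the opposite strand at -171 to -166, a motif found in 14.0% of windows. The direct repeat was in 0.0152% of windows and in none of the 6 at hand. The Apoe, Apod, Lrp1 and Cyp46a1 windows held none of the 4 motifs, which says only that these letters are not in these windows. The Apoe start used here lay 22 bases from the deposited start, and RefSeq lists 3 windows for the gene.

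Libraries held between 2.15 and 4.69 gigabases of aligned sequence, computed from the deposited coverage, and the CV libraries were the shallower ones on both days. Between 12912 and 14441 genes reached 1 TPM. The 2 CV day 32 libraries stood furthest apart, with a standard deviation of 0.465 for the difference of their log2(TPM + 1) values over genes, against 0.191 in MGS day 5, 0.197 in MGS day 32 and 0.321 in CV day 5. Comparisons used limma on log2(TPM + 1) in all 8 libraries, and a gene was called where its Benjamini-Hochberg adjusted p over 14904 genes was under 0.05. Folds are on that scale. The median log2 difference over all genes was -0.14 between MGS and CV at day 5 and 0.56 at day 32, 0.36 between days in MGS and -0.31 in CV. Median-of-ratios scaling removes most of such a shift by construction, and the day 32 median under it was -0.0029. The source of the shift was not tested. Values for single genes can be read beside these medians, each of which hides a trend with transcript length.

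Cell type markers moved with the groups. The 12 astrocyte markers, none of them at 0 in any library, summed to between 17571 and 17799 TPM in MGS day 5, 3946 and 4204 in CV day 5, 14714 and 14742 in MGS day 32, and 1769 and 2323 in CV day 32. Gfap, the astrocyte intermediate filament, was at 13723 and 13744 TPM in MGS day 5, 1657 and 1540 in CV day 5, 9571 and 9605 in MGS day 32, and 696 and 812 in CV day 32. All 12 astrocyte markers were thus detected in all 4 groups, and Gfap made up most of the sum in MGS. At day 5, 6 of the 12 were called higher in MGS, 1 lower and 5 not called, among them Aqp4, Sox9 and Slc1a3. At day 32, 11 were called higher and 1 lower. The lower one on both days was Aldh1l1, a folate enzyme of astrocytes, at 257 and 251 TPM in MGS day 5, 429 and 391 in CV day 5, 159.7 and 164 in MGS day 32, and 237 and 259.7 in CV day 32.

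The 18 microglia and macrophage markers summed to between 150.1 and 171 TPM in CV day 5, 1353 and 1380 in MGS day 5, 1697 and 1724 in MGS day 32, and 18847 and 20073 in CV day 32. Lyz2, lysozyme of macrophages, went from 29.6 and 30.8 TPM in CV day 5 to 9452 and 11181 in CV day 32, while MGS held 614 and 636 at day 5 and 697 and 677 at day 32. Among these markers only Aif1 was at 0, in 1 CV day 5 library. Markers of meningeal fibroblasts (12 genes) summed to between 12419 and 14317 TPM in MGS day 5 and 13971 and 14003 in MGS day 32, against 405 and 412 in CV day 5 and 369 and 544 in CV day 32. The larger part of these sums in MGS was Ptgds, at 6521 and 8262 TPM at day 5 and 10535 and 10493 at day 32. The 10 markers of choroid plexus epithelium summed to between 13003 and 17453 TPM in MGS day 5 and 2285 and 2308 in MGS day 32, against 112 to 179 in CV. Ttr made up most of the choroid plexus sums in MGS, at 12453 and 16841 TPM at day 5 and 1878 and 1857 at day 32. Of 9 tested choroid plexus markers, 4 were called lower between days in MGS and 5 were not called. Up to 2 fibroblast and 1 choroid plexus markers were at 0 in a CV library. The 10 oligodendrocyte markers summed to between 1527 and 1581 TPM in MGS day 5 and 1104 and 1122 in MGS day 32. In CV they summed to between 110 and 115 at day 5 and 147 and 170 at day 32, with up to 5 at 0. Ependyma, endothelium and mural cell sums were also higher in MGS on both days. The larger part of the endothelium sums in MGS was Cdh5, at 168 and 166 TPM at day 5 and 119 and 135 at day 32. Of 9 endothelium markers, 5 were called higher and 1 lower at day 5, and 4 higher at day 32. Their median log2 difference at day 32 was 0.11, beside 0.56 over all genes. Oligodendrocyte precursor sums were lower in MGS at day 5 and higher at day 32. The day 5 sums followed mainly Olig1 and Olig2, with means of 148 and 39.4 TPM in MGS and 491 and 156 in CV. Of 7 tested precursor markers, 4 were called higher in MGS at day 5 and 2 lower. Neuron sums were lower in MGS on both days. Of 7 tested neuron markers, 3 were called higher and 2 lower at day 5, and 3 higher and 1 lower at day 32.

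**Figure D1:**
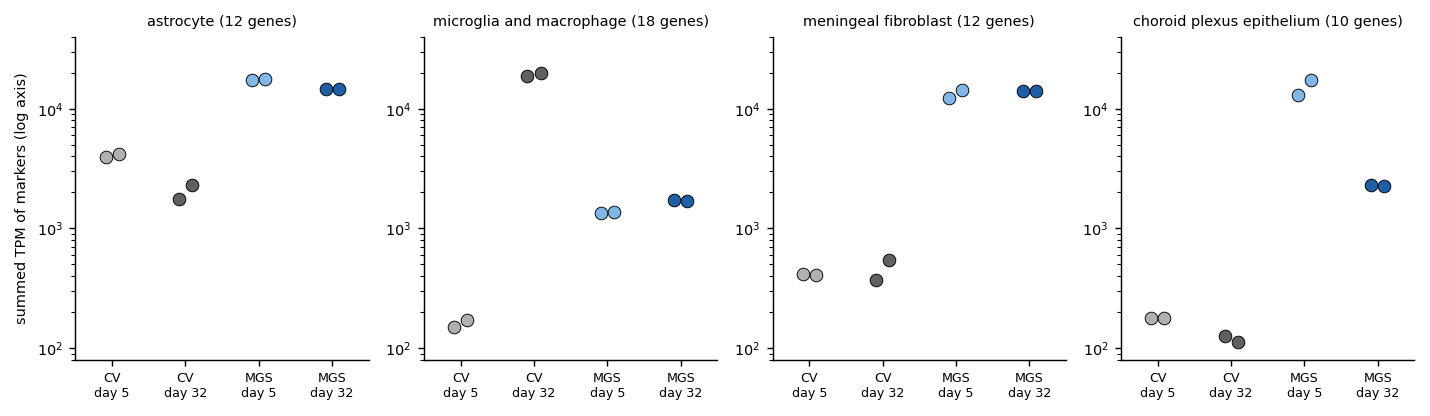
Summed TPM (log axis) of 4 marker lists in each library (points), by group. Microglia and macrophage markers are lowest in CV day 5 and highest in CV day 32, and meningeal fibroblast and choroid plexus markers are higher in MGS than in CV on both days.

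Fibroblast markers were called higher in MGS for 12 of 12 genes on each day, and choroid plexus markers for 8 of 9 tested genes at day 5 and 9 of 9 at day 32. Microglia and macrophage markers were called higher in MGS for 16 of 18 genes at day 5 and lower for 16 of 18 at day 32, and 18 of 18 rose between days in CV. Their part in the results on the lipid genes was not tested. In bulk RNA, fewer cells of a type and less RNA per cell cannot be told apart.

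Apoe, the main lipid carrier of the brain, had the highest TPM of all genes listed in 6 of the 8 libraries. No genes of the mitochondrial chromosome are listed. Its TPM was 28785 and 28950 in MGS day 5, 5218 and 3712 in CV day 5, 14177 and 14478 in MGS day 32, and 18029 and 13628 in CV day 32. At day 5 the MGS libraries were far above the CV libraries, and at day 32 the groups overlapped. The gene spans chr7:19696244-19699166 (mm10) on the minus strand and had rank 5 and rank 10 in the CV day 5 libraries. Macrophages are also known to make Apoe, and the sums of their markers are given above.

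The day 5 difference in Apoe was 2.71 on the log2 scale (SE 0.20, limma adjusted p = 3.27e-05), a 6.56-fold higher level in MGS. At day 32 it was -0.13 (SE 0.20, limma adjusted p = 0.573), and after correction for transcript length and GC content it was 0.36 (limma adjusted p = 0.00308), so its direction at day 32 rests on the processing. Between days Apoe fell 2.01-fold in MGS (limma adjusted p = 0.00665) and rose 3.56-fold in CV (limma adjusted p = 0.000305). The fall in MGS was no longer called when any 1 MGS library was left out, with adjusted p from 0.0521 to 0.0589, or after quantile normalization, which sets this top-ranked gene to 1 value. The change of the culture difference between days was -2.84 (SE 0.28, limma adjusted p = 0.000249).

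Clu, clusterin, is a second abundant apolipoprotein, also secreted by astrocytes and known as a chaperone outside the cell. Its TPM was 3361 and 3443 in MGS day 5, 1673 and 1562 in CV day 5, 3061 and 2991 in MGS day 32, and 1362 and 1338 in CV day 32. Every MGS library was above every CV library. The level in MGS was 2.1-fold higher at day 5 (log2 1.07, SE 0.09, limma adjusted p = 7.5e-05) and 2.24-fold higher at day 32 (log2 1.16, SE 0.09, limma adjusted p = 3.31e-05).

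Clu was the 1 gene of the 10 with no call for a change of the culture difference between days (0.09, SE 0.13, limma adjusted p = 0.554). This rests on the processing, since the change was 0.68 after quantile normalization (limma adjusted p = 0.00528), 0.91 with length and GC corrected (limma adjusted p = 0.00192) and -0.74 under median-of-ratios scaling (limma adjusted p = 0.0676). Between days its differences were small, -0.17 in MGS (limma adjusted p = 0.166) and -0.26 in CV (limma adjusted p = 0.0448), a call that held in 8 of 18 alternative settings. Under median-of-ratios scaling, which moves the all-gene median, its day 32 difference was 0.53 (limma adjusted p = 0.0585) and its change between days in CV 0.14. Its span is chr14:65968483-65981545 on the plus strand.

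Apod, a lipocalin that carries lipids and is known to be made by glia and meningeal cells, spanned the widest range among the genes detected in every library. Its TPM was 518 and 505 in MGS day 5, 4.83 and 4.54 in CV day 5, 300.4 and 273.7 in MGS day 32, and 66.3 and 63.5 in CV day 32. The 4 groups stood apart with no overlap, in the order MGS day 5, MGS day 32, CV day 32, CV day 5. MGS was 90.2-fold higher at day 5 (log2 6.49, SE 0.10, limma adjusted p = 3.07e-07) and 4.37-fold higher at day 32 (log2 2.13, SE 0.10, limma adjusted p = 3.57e-06).

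Between days Apod fell 1.78-fold in MGS (limma adjusted p = 0.00101) and rose 11.6-fold in CV (limma adjusted p = 7.4e-07). The culture difference was smaller at day 32 by 4.37 log2 units (limma adjusted p = 5.17e-06). All 5 calls for Apod held in each of the alternative settings run. The gene lies at chr16:31296192-31314596 on the minus strand. The fibroblast and oligodendrocyte marker sums were also higher in MGS, as were those of astrocytes, choroid plexus, ependyma, endothelium and mural cells. Between days in CV the fibroblast sums went from 405 and 412 TPM to 369 and 544. The oligodendrocyte sums went from 110 and 115 to 147 and 170. The part of these cells in the result was not tested.

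Apoc1, a small apolipoprotein that rides on the same particles, lies downstream of Apoe on the same strand, at chr7:19689481-19692658, with 3585 bases between the spans. Its TPM was 34.7 and 40.8 in MGS day 5, 18.5 and 12.9 in MGS day 32 and 2.80 and 2.43 in CV day 32, and it was listed at 0 in both CV day 5 libraries. The order of the groups was that of Apod, with no overlap. It was called higher in MGS at day 5 (limma adjusted p = 1.83e-06), with no fold because CV is listed at 0, and it was 4.57-fold higher at day 32 (log2 2.19, SE 0.20, limma adjusted p = 7.42e-05).

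Apoc1 fell 2.35-fold between days in MGS (limma adjusted p = 0.00338) and was called higher at day 32 in CV (limma adjusted p = 0.000338). Its culture difference changed between days by -3.08, a difference of log2(TPM + 1) values and not a fold (limma adjusted p = 0.000203). At day 32 the cultures overlapped in Apoe and stood apart in Apoc1, and the difference between these neighbours was not tested. All 4 carriers were called higher in MGS at day 5, and Clu, Apod and Apoc1 also at day 32.

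**Figure D2:**
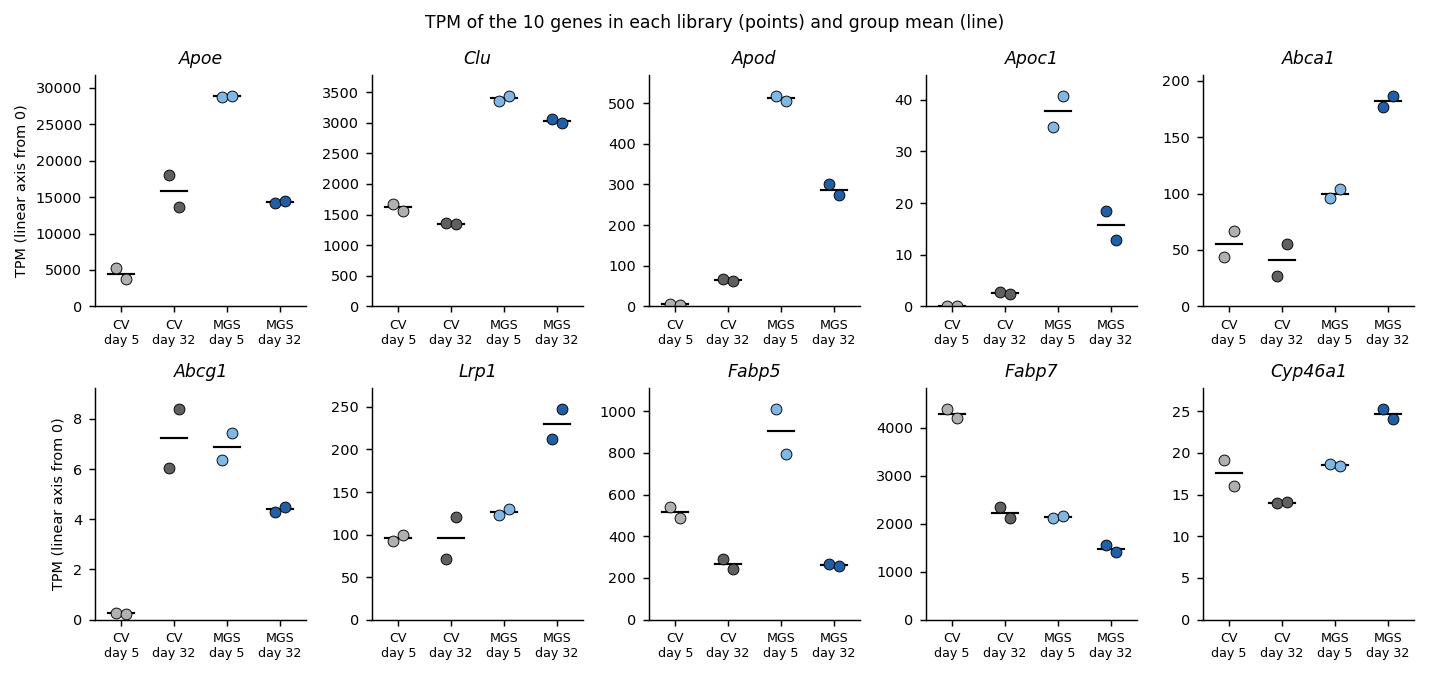
TPM of the 10 genes, 1 panel a gene, on linear axes from 0; points are the 2 libraries of each group and lines the group means. Apoe in CV lies below MGS at day 5 and overlaps it at day 32, Abca1 and Lrp1 are highest in MGS day 32, and Fabp7 is highest in CV day 5.

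Abca1, the pump that starts a particle by handing lipid to a bare apolipoprotein, was at 95.8 and 104 TPM in MGS day 5, 44.0 and 67.1 in CV day 5, 177 and 187 in MGS day 32, and 27.1 and 55.4 in CV day 32. Both MGS groups were above both CV groups, and the CV groups overlapped each other. The day 32 difference was 4.59-fold (log2 2.20, SE 0.32, limma adjusted p = 0.000794). At day 5 it was 0.87 (SE 0.32, limma adjusted p = 0.0588), which missed the threshold. It passed under median-of-ratios scaling (1.06, limma adjusted p = 0.00589). It also passed without either CV day 32 library, but these are not in the day 5 comparison. The difference stayed at 0.87, and what changed was the estimate of spread shared by all groups.

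Abca1 has a long transcript (10262 bases in GENCODE M21), and long transcripts as a class read higher in MGS at day 32. The median log2 difference was 1.37 for the longest eighth of genes (6262 bases or more) and -0.15 for the shortest eighth (1438 bases or less). At day 5 the trend ran the other way, with medians of -0.49 for the longest eighth and 0.11 for the shortest. With length and GC corrected, the Abca1 difference was 1.31 at day 5 (limma adjusted p = 0.00165) and 1.26 at day 32 (limma adjusted p = 0.00154). Its change of culture difference between days was 1.33 (SE 0.46, limma adjusted p = 0.0365) and turned to -0.06 with that correction. In CV the change between days was -0.48 (limma adjusted p = 0.243). It was -0.98 without CV day 32 replicate 2 and 0.027 without CV day 32 replicate 1. The gene spans chr4:53030789-53159895 on the minus strand.

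Abcg1, the pump that adds lipid to particles already formed, did not follow Abca1. Its TPM was 6.35 and 7.43 in MGS day 5, 0.270 and 0.240 in CV day 5, 4.30 and 4.48 in MGS day 32, and 6.04 and 8.39 in CV day 32. CV libraries were below MGS at day 5 and above MGS at day 32, without overlap. On the log2(TPM + 1) scale, which understates the change of a gene this low, MGS was 6.27-fold higher at day 5 (log2 2.65, SE 0.18, limma adjusted p = 2.31e-05). CV rose 6.48-fold between days (log2 2.70, SE 0.18, limma adjusted p = 2.75e-05), and the change of the culture difference was -3.24 (SE 0.25, limma adjusted p = 9.81e-05).

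The lower level of Abcg1 in MGS at day 32 was -0.59 (SE 0.18, limma adjusted p = 0.0196), and the call was lost without either MGS day 32 library (limma adjusted p = 0.098 and 0.0794). The fall within MGS of -0.55 (limma adjusted p = 0.0419) was lost in 8 of the alternative settings. By group mean Abcg1 was lowest in CV day 5 and highest in CV day 32, as the microglia and macrophage sums were. In MGS the order differed, with Abcg1 higher at day 5 than at day 32 and those sums lower. Abcg1 in MGS day 5 also overlapped CV day 32, where the sums stood far apart. The part of these cells in the result was not tested. The gene spans chr17:31057694-31117981 on the plus strand.

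The ratio of the pumps, Abca1 to Abcg1 TPM, was 15.1 and 14.0 in MGS day 5, 163 and 279.8 in CV day 5, 41.1 and 41.7 in MGS day 32, and 4.48 and 6.60 in CV day 32. At day 32 it was lower than at day 5 in CV and higher in MGS, with no overlap of any groups, and these ratios carry no test.

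**Figure D3:**
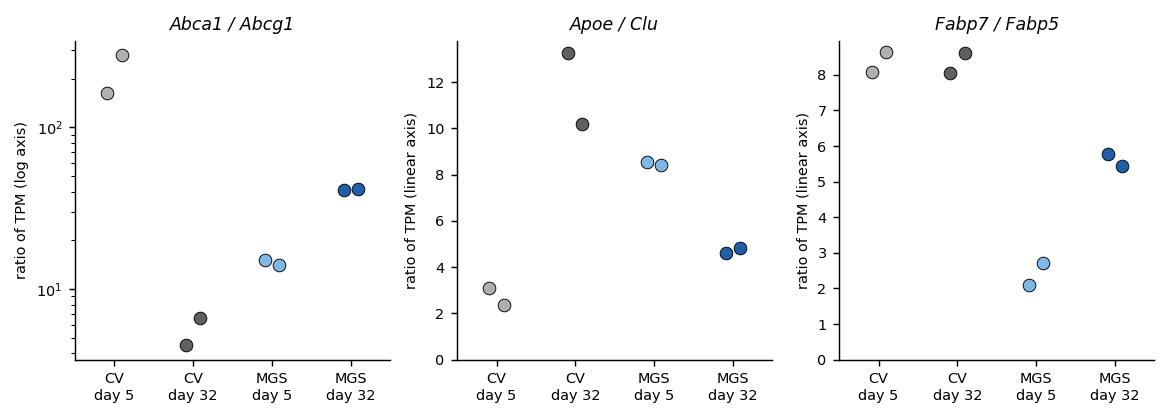
Ratios of TPM in each library (points), by group: Abca1 to Abcg1 on a log axis, Apoe to Clu and Fabp7 to Fabp5 on linear axes from 0. Abca1 to Abcg1 is highest in CV day 5 and lowest in CV day 32, and Fabp7 to Fabp5 is lowest in MGS day 5.

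Apoe to Clu, the ratio of the 2 abundant carriers, was 8.56 and 8.41 in MGS day 5, 3.12 and 2.38 in CV day 5, 4.63 and 4.84 in MGS day 32, and 13.2 and 10.2 in CV day 32. The groups did not overlap, and the ratio was lower at day 32 in MGS and higher in CV. The 10 genes together made up 3.61% and 3.62% of TPM in MGS day 5, 1.2% and 1.01% in CV day 5, 1.98% and 1.99% in MGS day 32, and 2.22% and 1.76% in CV day 32. Without Apoe the share was between 0.396% and 0.729%, so Apoe made up the larger portion in every group except CV day 5.

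Lrp1, a large endocytic receptor that binds apolipoprotein E, was at 123 and 129.9 TPM in MGS day 5, 92.9 and 100.06 in CV day 5, 213 and 248 in MGS day 32, and 70.7 and 121 in CV day 32. MGS day 32 stood above every other library, and the CV groups overlapped. At day 32 MGS was 2.46-fold higher (log2 1.3, SE 0.23, limma adjusted p = 0.00189), and at day 5 the difference was 0.39 (SE 0.23, limma adjusted p = 0.194). The day 5 difference was called in 8 of 18 alternative settings, among them median-of-ratios scaling (0.58, limma adjusted p = 0.0118). Leaving out either CV day 32 library was also among them. There the difference stayed at 0.39, and what changed was the shared estimate of spread. Lrp1 rose 1.81-fold between days in MGS (limma adjusted p = 0.022). In CV its change was -0.06 (limma adjusted p = 0.848). It was -0.44 without CV day 32 replicate 2 and 0.33 without CV day 32 replicate 1, so its direction rests on 1 library. With length and GC corrected it was called higher at day 32 (0.70, limma adjusted p = 0.016).

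Lrp1 has the longest transcript of the 10 genes (14888 bases), and with length and GC corrected its day 32 difference was 0.05 (limma adjusted p = 0.815). Its change of culture difference, 0.91 (SE 0.32, limma adjusted p = 0.0413), became -0.51 with that correction. The rise in MGS lost its call with the correction and without any 1 MGS library. The gene spans chr10:127538158-127621148 on the minus strand.

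Fabp5, an epidermal-type fatty acid binding protein also made by glial cells, fell with time in both cultures. Its TPM was 1011 and 795 in MGS day 5, 543 and 486 in CV day 5, 269 and 258 in MGS day 32, and 291 and 245 in CV day 32. MGS was above CV at day 5, and at day 32 the cultures overlapped. The day 5 difference was 1.75-fold (log2 0.80, SE 0.14, limma adjusted p = 0.00311) and the day 32 difference -0.02 (SE 0.14, limma adjusted p = 0.919).

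The fall of Fabp5 was 3.39-fold in MGS (limma adjusted p = 0.000216) and 1.92-fold in CV (limma adjusted p = 0.00169), and the difference between these falls was -0.82 (SE 0.20, limma adjusted p = 0.0111). Under median-of-ratios scaling Fabp5 was called lower in MGS at day 32 (-0.65, limma adjusted p = 0.0428). Fabp5 has near-identical processed copies in the mouse genome, so its level may depend on how the authors' counting shared reads among them. The gene spans chr3:10012585-10016610 on the plus strand.

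Fabp7, the brain-type binding protein of radial glia and young astrocytes, was called lower in MGS on both days. Its TPM was 2119 and 2161 in MGS day 5, 4388 and 4196 in CV day 5, 1552 and 1404 in MGS day 32, and 2341 and 2112 in CV day 32. CV stood above MGS on each day without overlap, and both CV day 5 libraries placed the gene at rank 8. The level in MGS was 2.00-fold lower at day 5 (log2 -1.0, SE 0.10, limma adjusted p = 2e-04) and 1.51-fold lower at day 32 (log2 -0.59, SE 0.10, limma adjusted p = 0.0019).

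Fabp7 fell 1.45-fold between days in MGS (limma adjusted p = 0.00675, lost in 4 of 18 alternative settings) and 1.93-fold in CV (limma adjusted p = 0.000351). Its transcript is short (880 bases), and with length and GC corrected the day 32 difference was 0.15 (limma adjusted p = 0.152). After quantile normalization it was -0.19 (limma adjusted p = 0.149), while the day 5 call held in each alternative run. The falls of Fabp5 and Fabp7 in CV were not called under median-of-ratios scaling (limma adjusted p = 0.0904 and 0.0861). The gene spans chr10:57784923-57788450 on the plus strand. The Fabp7 to Fabp5 ratio was 2.1 and 2.72 in MGS day 5, 8.09 and 8.63 in CV day 5, 5.77 and 5.44 in MGS day 32, and 8.05 and 8.62 in CV day 32.

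Cyp46a1, the cholesterol 24-hydroxylase known chiefly from neurons, was at 18.7 and 18.5 TPM in MGS day 5, 19.1 and 16.1 in CV day 5, 25.3 and 24.1 in MGS day 32, and 14.0 and 14.1 in CV day 32. The cultures overlapped at day 5 and stood apart at day 32. The differences were 0.08 at day 5 (SE 0.14, limma adjusted p = 0.654) and 0.77 at day 32 (SE 0.14, limma adjusted p = 0.00213), a 1.71-fold higher level in MGS. The day 32 value is close to the all-gene median of 0.56, and under median-of-ratios scaling it was 0.17, with no call.

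The 8 neuron markers, summed, were between 49.0 and 169 TPM. The higher sums in CV followed mainly Stmn2, at 13.7 and 16.0 TPM in MGS day 5, 101 and 118 in CV day 5, 15.7 and 13.4 in MGS day 32, and 143 and 146 in CV day 32. In MGS the larger part of the sums was Tubb3, at 35.9 and 35.1 TPM at day 5 and 29.7 and 31.9 at day 32. Tubb3 was lower in CV, at 19.5 and 16.8 TPM at day 5 and 21.7 and 19.8 at day 32. In CV day 32, 2 and 4 of the 8 markers reached 1 TPM and Snap25 was at 0 in 1 library, while in MGS day 32 it was 4 and 3 of 8. Their part in the result was not tested. The gene spans chr12:108334381-108362234 on the plus strand.

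Within MGS day 5 the levels ran from Apoe through Clu, Fabp7, Fabp5, Apod, Lrp1, Abca1, Apoc1 and Cyp46a1 to Abcg1, and the 10 genes had separate ranges of TPM, which is scaled to transcript length. In CV day 5 Apoe and Fabp7 overlapped at the top, with 4465 ± 1065 and 4292 ± 136 TPM (SD, n = 2), and Apod, Abcg1 and Apoc1 were the 3 lowest. In MGS day 32 the order opened Apoe, Clu, Fabp7, and Apod (287 ± 18.9 TPM), Fabp5 (264 ± 7.66) and Lrp1 (230.2 ± 24.7) followed, with ranges that did not overlap. Abca1, Cyp46a1, Apoc1 and Abcg1 closed that order. In CV day 32 Fabp7 (2226 ± 162 TPM) stood above Clu (1350 ± 16.8), and Lrp1 (95.9 ± 35.6) and Apod (64.9 ± 1.97) came after Fabp5, closer to each other than the spread of Lrp1. Abca1, Cyp46a1, Abcg1 and Apoc1 followed.

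Over the 10 genes, MGS against CV at day 5 gave 6 called higher, 1 lower and 3 not called, where 48.9% of all genes were called, 22.5% higher and 26.4% lower. At day 32 it gave 6 higher and 2 lower, where 67.6% of all genes were called, 52.8% higher and 14.8% lower. The median log2 difference of the 10 genes was 0.97 on each day. Relative to the all-gene median of day 32, Apoe lay at -0.69, Fabp5 at -0.58, Cyp46a1 at 0.22 and Clu at 0.61. That median hides a trend with transcript length. Genes in the same eighth of length had day 32 medians of -0.15 for Apoe, 0.46 for Fabp5, 0.27 for Cyp46a1 and 0.09 for Clu. Length here is that of the longest GENCODE transcript, 3238 bases for Fabp5. Whether that transcript was the one expressed was not tested. The day 32 value of Apoe itself was -0.13, close to that of its eighth. Groups did not overlap for 9 of the 10 genes at day 5, where 83.6% of all genes had no overlap, and for 8 of 10 at day 32, where it was 84.4%.

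Between days in MGS, 1 gene rose (Lrp1), 6 fell and 3 were not called, beside 42.5% called over all genes, 35% higher and 7.53% lower. Days did not overlap for 10 of 10, as for 88.6% of all genes. The median was -0.54 for the 10 genes against 0.36 for all. In CV, 4 genes rose (Apoe, Apod, Apoc1 and Abcg1), 3 fell (Clu, Fabp5 and Fabp7) and 3 were not called, beside 53.7% over all genes, 16% higher and 37.7% lower. Days did not overlap for 8 of 10, as for 72.1% of all genes. The 2 comparisons of culture and the 2 of time share libraries pairwise, so their values stand side by side and are not independent. The change of culture difference between days was called for 9 genes, 4 higher and 5 lower, where 62% of all genes were called, 49.7% higher and 12.3% lower.

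**Figure D4:**
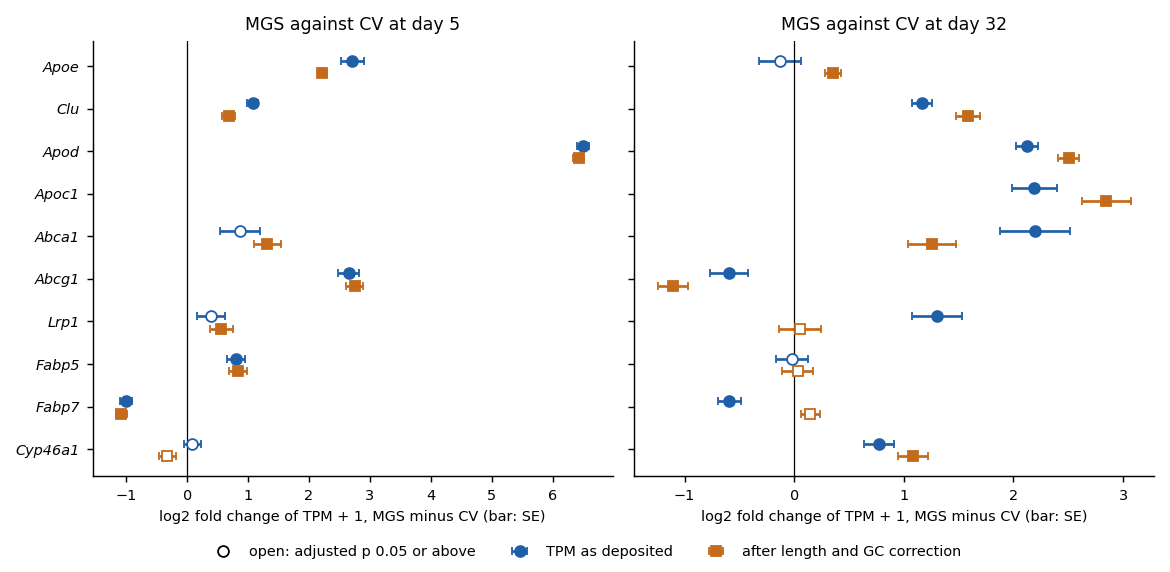
Log2 fold change of TPM + 1, MGS minus CV, for each gene at day 5 and at day 32, with bars of 1 SE from limma. Circles are TPM as deposited and squares the values after correction for transcript length and GC content, open where the adjusted p was 0.05 or above; Apoc1 is left out at day 5 because CV is listed at 0. At day 32 the correction moves Lrp1 from 1.3 to 0.05 and leaves Abca1 at 1.26.

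The wider pathway was read from lists that include the 10 genes, so calls already given for these genes count again in the lists. Their counts stand beside 22.5% of all genes called higher and 26.4% lower in MGS at day 5, and 52.8% higher and 14.8% lower at day 32. Of 15 LXR and RXR receptors and known LXR targets, 9 were called higher and 2 lower in MGS at day 5, and 10 higher and 2 lower at day 32, with medians of 0.70 and 0.63 against -0.14 and 0.56 over all genes. The day 32 count and median are thus close to those of the whole table. Apoe, Apoc1 and Abcg1 were among the 9 higher at day 5. At day 32 Abca1 and Apoc1 were among the 10 higher and Abcg1 among the 2 lower. Of the LXR genes themselves, Nr1h2 (LXR beta) differed by 0.23 and 0.09, neither called, and Nr1h3 (LXR alpha) by 0.47, not called, and 0.57 (limma adjusted p = 0.0197). Mylip, which tags lipoprotein receptors for breakdown, was higher in MGS at day 5 by 1.55, and Arl4c lower (-1.29). Pltp, the phospholipid transfer protein, was higher by 1.18 and 1.48, and Srebf1, a regulator of lipid synthesis, by 1.72 at day 32, with Rxra by 1.08.

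Of 14 ABC lipid transporters, 4 were called higher and 1 lower at day 5, and 12 higher and 1 lower at day 32, with medians of 0.28 and 1.18. The day 32 count stands beside the higher reading of long transcripts in MGS given with Abca1, and was 10 higher with length and GC corrected. Abca4 was at 6.48 and 7.60 TPM in MGS and 1.08 and 1.35 in CV at day 5, a difference of 1.86, and differed by 1.93 at day 32. Abca9 was higher in MGS by 1.24 at day 5 and 2.43 at day 32, Abca2 by 1.84 at day 32, and Abca8b lower at day 5 (-0.94). At day 32 Abca8b was called higher (0.86, limma adjusted p = 0.0225), and was 0.23 with length and GC corrected (limma adjusted p = 0.218) and -0.15 after quantile normalization. That call was also lost without either MGS day 32 library or CV day 32 replicate 1, with adjusted p from 0.07 to 0.096. At day 5 the Abca9 call was lost without any 1 day 5 library or MGS day 32 library, with adjusted p from 0.0625 to 0.136. The Abca8b call was lost without either MGS day 5 library or CV day 5 replicate 2, with adjusted p from 0.0811 to 0.132. The count of higher transporters at day 5 ranged from 2 to 8 over the alternative settings, and that of higher LXR genes at day 32 from 6 to 13.

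Among 12 tested apolipoproteins and lipoprotein enzymes, 7 were called higher and 2 lower at day 5, and 5 higher and 2 lower at day 32, while Apoc4, Apoa1, Apoa4, Apob and Apom did not pass the filter. Apoe, Clu, Apod and Apoc1 were among the 7 higher at day 5, and Clu, Apod and Apoc1 among the 5 at day 32. Apoc2, the activator of lipoprotein lipase, was listed at 0 in both CV day 5 libraries, at 4.08 and 5.33 TPM in MGS day 5, 2.94 and 2.93 in MGS day 32, and 83.4 and 62.9 in CV day 32. It was called higher in MGS at day 5 and lower at day 32 (-4.22), where Lpl, the lipase itself, was also lower (-2.93). Lipg, endothelial lipase, was lower in MGS at day 5 (-2.27). Over the alternatives, the count of lower genes at day 32 ranged from 2 to 6.

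Of 15 tested receptors, 4 were called higher and 7 lower in MGS at day 5, and 8 higher and 2 lower at day 32. Lrp2, a large endocytic receptor, was at 1.42 and 1.5 TPM in MGS and 57.8 and 78.3 in CV at day 5, a difference of -4.79. Lsr, a lipolysis-stimulated receptor, was higher by 5.10 at day 5 and 3.22 at day 32. Sorl1 was higher at day 32 by 2.99, and Msr1, a macrophage scavenger receptor, lower (-2.57). The count of lower receptors at day 32 ranged from 2 to 6 over the alternatives.

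Of 9 fatty acid and retinoid binding proteins, 5 were called higher and 3 lower at day 5, and 4 higher and 3 lower at day 32, the last count of higher genes ranging from 1 to 4 over the alternatives. Crabp2, which binds retinoic acid, was higher in MGS by 5.28 at day 5 and by 3.36 at day 32, where Crabp1 was lower (-2.22). Fabp4, the adipocyte and macrophage type, was at 15.0 and 15.9 TPM in MGS and 0.431 and 0 in CV at day 5, and at 0.466 and 0.809 in MGS and 11.5 and 10.2 in CV at day 32. It was called higher in MGS at day 5 and lower at day 32.

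Of 14 tested oxysterol enzymes and genes of cholesterol handling in the cell, 4 were called higher and 5 lower at day 5, and 7 higher and 4 lower at day 32. Ch25h, which makes 25-hydroxycholesterol, was at 4.37 and 4.32 TPM in MGS and 0.242 and 0.207 in CV at day 5, and at 22.3 and 20.6 in MGS and 109.9 and 129 in CV at day 32. Its culture difference was 2.13 at day 5 and -2.42 at day 32. Stard4, a cholesterol carrier, was lower in MGS at day 5 (-2.22) and higher by 2.00 at day 32, Nceh1 lower at day 5 (-1.75), and Lipa, the lysosomal acid lipase, lower at day 32 (-1.67). The count of lower genes at day 5 ranged from 2 to 6.

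For each of the 10 genes, the nearest patterns were sought among 11250 genes with a mean of at least 5 TPM, by the root mean square difference of centred log2(TPM + 1) over 8 libraries. Apoe lay nearest to Rcn3 (0.0772), Mmp23 (0.11) and Eva1b (0.20). Apod lay nearest to Col3a1 (0.283), Itih2 (0.332) and C3 (0.44), and Apoc1 to Ctsk (0.215), A4galt (0.266) and Six2 (0.28). Col3a1 is itself on the list of fibroblast markers. Clu lay nearest to Cirbp (0.105), Pdxp (0.106) and Cacnb3 (0.107).

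Abca1 lay nearest to Rictor (0.086), Nxpe4 (0.122) and Serinc5 (0.129), and Lrp1 to Fbxl20 (0.0889), Crtc3 (0.0997) and Sntb2 (0.103). Abcg1 lay nearest to Tmem173 (0.133), H2-D1 (0.185) and Tmem140 (0.23). The distances of Fabp5 were wider, to Cited1 (0.154), Mthfd1l (0.261) and Tmsb10 (0.261), than those of Fabp7, to Phgdh (0.0741), H2afz (0.0748) and Tcf19 (0.0846). Cyp46a1 lay nearest to Tmem17 (0.0708), Apbb1 (0.0773) and Hsdl1 (0.0811). Genes with flatter profiles have nearer neighbours by construction, and the libraries are shared by all genes.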

How the data were processed

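RNA of 8 libraries (2 for each of 4 groups, grouped by their titles) was measured by total RNA sequencing with a directional kit, per the labels' protocols. The submitters' processing notes name bcl2fastq, HISAT2 2.1.0 and StringTie 1.3.4d, and the builds hg38 and mm10 without roles. The deposited positions of the 10 genes are printed as mm10 because the samples are mouse; annotation and use of strand are not given in the sources used here.

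The authors deposited coverage, FPKM and TPM per gene and library, per the file headers, and 1 series-wide table of TPM. TPM keeps no depth, so read counts could not be taken from it. Coverage was used only for aligned gigabases. Rows of 1 gene were summed, giving 23420 gene IDs. The 10 genes had the same TPM in both sources.

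The 14904 genes that reached 1 TPM in 2 or more libraries were tested on log2(TPM + 1), pseudocount 1, with limma 3.58.1 in R 4.3.3: 4 group means in 8 libraries, 4 residual degrees of freedom, a trended prior (median 3.3 degrees of freedom), two-sided, Benjamini-Hochberg adjustment over all genes tested. An exact permutation test of 2 against 2 libraries cannot give a p below 0.333, so none was used. The main fit does not pair libraries by replicate number, and a replicate block was run as an alternative. No pair of libraries had identical values. The scripts were tested on simulated data.

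The 10 genes, the pathway lists and the marker lists were chosen with earlier results of these data known. The text names all 10 genes, up to 3 called other genes of each pathway list by size in each culture comparison, Gfap, Lyz2, the 2 LXR genes (added after their values were seen) and the 3 genes nearest in pattern to each of the 10. Some genes that this rule names are not reported here. Alternatives were median-of-ratios scaling, quantile normalization, FPKM, a pseudocount of 0.1, no filter, the series-wide table, a fit that removes trends with transcript length and GC (GENCODE M21, splines of 4 degrees of freedom, available for 99.4% of genes tested), a replicate block with and without that correction, only the 4 libraries compared, and leaving out each library. Length and GC are those of the longest GENCODE transcript of a gene, which need not be the one expressed. Promoter windows are from RefSeq.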

Additional observations from a re-analysis of the deposited data

Results flagged for a closer look

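For 9 of the 10 genes the culture difference itself changed between day 5 and day 32, by limma's test of that change (adjusted p under 0.05, where 62% of all genes passed). The change, on the log2(TPM + 1) scale, was -2.84 for Apoe, -4.37 for Apod, -3.08 for Apoc1 (not a fold, since CV day 5 is listed at 0), -3.24 for Abcg1 and -0.82 for Fabp5. It was 1.33 for Abca1, 0.91 for Lrp1, 0.69 for Cyp46a1 and 0.41 for Fabp7, set against a median of 0.65 over all genes. The 5 negative changes were called in each alternative setting run, and the 4 positive ones were not.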

How the results depend on the processing

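Apod and Apoc1 kept all 5 calls, and Apoe, Abcg1 and Fabp5 their day 5 and interaction calls, in every alternative run. Of 890 values for the 10 genes, 740 kept direction and call, 73 lost a call, 36 gained one and 41 turned direction. Of 900 for other named genes, these were 833, 40, 25 and 2. Leaving out a library from outside a comparison keeps its difference and changes the shared estimate of spread. Where a call or direction changed otherwise, the cause was not tested.

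Genes of the 10 with a higher interaction (4) numbered 0 after median-of-ratios scaling or with FPKM and 1 with no filter, and genes called for interaction (9) were 5 after both scalings. Higher genes between days in MGS (1) were 2 after quantile normalization or with the replicate block and 3 with only 4 libraries. Lower genes at day 32 (2) were 1 after quantile normalization, with length and GC corrected (also with the block), or with 4 libraries. In CV between days, median-of-ratios scaling gave 4 called (7) and 0 lower (3). Over all genes the 4-library fits called 3483 in CV and 11596 in MGS. Leaving out each library gave 0 to 4 higher and 5 to 9 called for the interaction, with 5 lower. It gave 6 higher, 1 to 2 lower and 7 to 8 called at day 32, and 6 to 8, 1 and 7 to 9 at day 5. Between days it gave 4 to 5, 2 to 5 and 6 to 9 in CV, and 0 to 3, 3 to 6 and 3 to 9 in MGS. All genes called ranged from 6637 to 11473 for the interaction, 7431 to 11848 at day 32, 4523 to 10086 at day 5, 4830 to 10676 in CV and 2455 to 9732 in MGS. Deviations of same-numbered libraries correlated from -0.131 to 0.444 between groups, the highest between CV day 5 and CV day 32. The source of that correlation was not tested. With the replicate block the day 5 difference of Abca1 was called (limma adjusted p = 0.0136).

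Directions turned as follows, in log2 units, with the length and GC values the same with the block. At day 5, Cyp46a1 was -0.33 with length and GC corrected and -0.038 to 0.20 without a day 5 library, lowest without CV day 5 replicate 2. At day 32, Apoe was 0.36 with that correction and 0.072 without CV day 32 replicate 1, and Fabp7 0.15 with the correction. Fabp5 was 0.065 after quantile normalization, 0.031 corrected, and from -0.14 (without CV day 32 replicate 2) to 0.11 (without CV day 32 replicate 1) with 0.012 without MGS day 32 replicate 2. Quantile normalization gave Mylip -0.25 and Abca8b -0.15. In MGS between days, Cyp46a1 was -0.023 after median-of-ratios scaling and -0.12 after quantile normalization, and Clu 0.24 after quantile normalization and 0.19 corrected. In CV between days, Clu was 0.14 after median-of-ratios scaling and 0.010 with FPKM, and Cyp46a1 0.074 and, after quantile normalization, 0.064. Lrp1 was 0.34 with median-of-ratios scaling, 0.13 with quantile normalization, 0.21 with FPKM, 0.70 corrected and -0.44 to 0.33 without a CV day 32 library, and Abca1 0.23 corrected and -0.98 to 0.027 without a CV day 32 library, in both highest without replicate 1. For the interaction, median-of-ratios scaling and FPKM gave Clu -0.74 and -0.44 and Fabp7 -0.42 and -0.11. Cyp46a1 was -0.10 after median-of-ratios scaling and -0.18 after quantile normalization, and with length and GC corrected Abca1 was -0.056 and Lrp1 -0.51. The share of day 32 calls that were higher in MGS was 78% as deposited, 50.1% under median-of-ratios scaling, 47.1% under quantile normalization and 60.1% for FPKM. It was 82.3%, 50.1%, 48.1% and 64.7% between days in MGS, 29.8%, 50.4%, 42.1% and 44.1% in CV, and 80.1%, 47.5%, 52.4% and 60.4% for the interaction. Median-of-ratios scaling and quantile normalization level the libraries by construction, which moves these shares. The source of the shift was not tested.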
